A study of Mus musculus with 4 samples.

Results

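The cells described here are class II-rich peritoneal cells that carried transcripts of Cd209a, a mouse homologue of the lectin DC-SIGN. A cell was a member with at least 2 UMIs (unique molecular identifiers, each standing for 1 captured transcript) of Cd209a and at least 20 UMIs of Cd74, the invariant chain of class II molecules. It also had no UMI of the B cell gene Cd79a and none of the T cell genes Cd3d, Cd3e and Cd3g. The matrix held 26811 barcodes, of which 20864 were kept for having 500 or more detected genes and no more than 10% of UMIs from mitochondrial genes. Of these, 199 met the rule, which is 0.954%. Members were set against the 15727 cells of the same libraries with at least 2 UMIs of Adgre1, which encodes the macrophage surface protein F4/80, and no UMI of Cd209a. These are called the Adgre1-positive cells below.

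Conventional dendritic cells take up antigen and display peptides on class II molecules to T cells. They depend on the cytokine Flt3 ligand, which acts through the receptor Flt3, and the transcription factor Zbtb46 marks cells committed to this lineage. The mouse peritoneal cavity is known for a resident population of large macrophages that require the transcription factor Gata6, and for smaller class II-rich, Ccr2-dependent cells that monocytes replenish and that share many transcripts with dendritic cells.

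The cells were viable F4/80-positive peritoneal cells, labelled as macrophages and sorted for 10x Genomics 3' single-cell libraries. The labels give 4 groups of mice aged 24 weeks with 1 sample each, namely Apoe-/- HFD anti-CVI-mAb, Apoe-/- HFD, Apoe-/- and C57. Mice of the first group were Apoe-/- and received 3 mg of a collagen VI antibody in 200 µL after a high-fat diet of 20 weeks with 21% fat and 0.15% cholesterol. Mice of the second had the same genotype and diet, and got the buffer PBS in the same volume by the same intraperitoneal route. Mice of the third were Apoe-/- on a normal diet and those of the fourth C57BL/6 on a normal diet, both with PBS. The knockout of Apoe, which encodes the cholesterol carrier apolipoprotein E, was thus shared by 3 of the 4 groups and the high-fat diet by 2. Male sex is stated for the Apoe-/- mice put on the high-fat diet, and the labels used here do not state how many mice made up a sample.

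The matrix joins 4 libraries, told apart by barcode suffixes 1 to 4, and the group behind each suffix is stated neither in the labels nor in the headers. The libraries are therefore described 1 by 1 by their suffix, and genotypes, diets and the antibody were not compared. No p-value was computed, since cells of 1 library are not replicates. The libraries held 6254, 6765, 6454 and 7338 barcodes with 40321459 to 78083803 UMIs in all. Library 1 stood apart, with the fewest UMIs and with 2643 barcodes removed for failing either limit, against 742 to 1419 in the others. Of the kept barcode sequences, 35 occurred in more than 1 library, and none of these was a member. The doublet caller Scrublet marked 72 of 5547 barcodes in library 1 and 1 of 6518, 0 of 5607 and 2 of 6414 in libraries 2 to 4. It has not worked in libraries 2 to 4, and doublets were kept throughout. Of the members it marked 1, in library 1. The sorted cells were not all macrophages by their markers, since 1752 kept barcodes had at least 2 UMIs of Cd79a and 472 had at least 2 of the Cd3 genes, each with no Adgre1 and no Cd209a. These B and T cells serve below as a measure of free RNA.

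Members numbered 29, 35, 65 and 70 in libraries 1 to 4. They made up 0.803% of kept barcodes in library 1 (exact 95% binomial interval 0.538 to 1.15%), 0.581% in library 2 (0.405 to 0.807%), 1.22% in library 3 (0.946 to 1.56%) and 1.18% in library 4 (0.923 to 1.49%). The intervals of libraries 3 and 4 lie above that of library 2 and overlap that of library 1. With only the 125 members that had at most 1 UMI of Adgre1, the shares were 0.582, 0.448, 0.828 and 0.558%. Intervals cover counting error only, here and below. The median member had 13391, 11430, 10361 and 11851 UMIs in libraries 1 to 4, and the median Adgre1-positive cell 8546, 12661, 14046.5 and 12975. Members were thus deeper than the Adgre1-positive cells in library 1 only. Mitochondrial UMIs took a median of 2.64 to 3.21% in members and 3.66 to 5.39% in Adgre1-positive cells, with the higher value in Adgre1-positive cells of every library.

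The rule chose members on Cd209a and Cd74, so the levels of these genes are no finding. A member had a median of 8 UMIs of Cd209a (range 2 to 62) and of 271 UMIs of Cd74 (20 to 706). Members held 64.3 to 71.2% of all Cd209a UMIs among the kept barcodes of a library. Just inside the limit, 56 members had 2 or 3 UMIs of Cd209a, and 37 of these also had at least 2 UMIs of Adgre1. Just outside it, 145 cells met every other condition with 1 UMI of Cd209a, and 127 of them had at least 2 UMIs of Adgre1. Among the 143 members with 4 or more UMIs of Cd209a the number was 37. The Flt3 level was 128, 78.3, 31.6 and 16.5 CPM (UMIs of the gene per 1e+06 UMIs, both summed over cells) in the members with 2 or 3 UMIs of Cd209a in libraries 1 to 4, and 14.9, 15.96, 10.5 and 3.66 CPM in the cells with 1 UMI. In members with 4 or more UMIs of Cd209a it was 204, 92.8, 115 and 105 CPM, so the cells near the limit, on either side of it, had less Flt3. In library 2 the gap just inside the limit was small, with 78.3 CPM from 10 UMIs against 92.8 CPM from 32 UMIs. Another 96 cells, in libraries 1, 3 and 4, had at least 2 UMIs of Cd209a but fewer than 20 of Cd74, and their Flt3 level was 0 to 5.41 CPM with 405 to 498 CPM of the macrophage receptor Timd4. A further 29 cells failed only for a UMI of a lymphocyte gene, and had 28.8 to 118 CPM of Flt3.

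The label calls these cells dendritic-like. Of 8 dendritic cell genes that the rule did not use (Flt3, Zbtb46, Itgax, Dpp4, Klrd1, Mgl2, Plbd1 and Clec4b1), at least 3 had a UMI in 158 of 199 members and in 70 of 15727 Adgre1-positive cells. Since 4 of the 8, Klrd1, Mgl2, Plbd1 and Clec4b1, are markers given with the label, this count is a description and no check of the label apart from them. Another 35 members had at least 3 of 7 large-macrophage genes (Gata6, Timd4, Icam2, Selp, Prg4, Alox15 and Cxcl13) and at most 1 of the dendritic genes, which went against the label, and all 35 had at least 2 UMIs of Adgre1. For that reason the cells are called Cd209a-positive cells below, and Adgre1 is followed among them. The label's other markers Mgl2, Plbd1, Clec4b1, Klrd1 and Ccr2 summed to 2798, 2394, 1633 and 1474 CPM in members of libraries 1 to 4, and to 216, 137, 33.2 and 48.1 CPM in Adgre1-positive cells. Ccr7, a chemokine receptor of migrating dendritic cells, was at 0 in members.

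Genes are compared below by the log2 ratio of the summed CPM in members over that in Adgre1-positive cells of the same library, with 0.5 UMIs added to each sum. All of these ratios describe cells picked by their transcripts, and none carries a test.

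Flt3, the receptor for Flt3 ligand (chr5:147330741-147400489, minus strand of GRCm38), stood at 168.7, 88.9, 98.1 and 71.4 CPM in Cd209a-positive cells of libraries 1 to 4, and at 1.53, 0.0666, 0.269 and 0.180 CPM in Adgre1-positive cells. The lowest level in members was above the highest in Adgre1-positive cells by a wide margin, with log2 ratios of 6.77, 10.23, 8.48 and 8.59. The member levels rest on 68, 42, 76 and 69 UMIs (exact 95% Poisson intervals 131 to 214, 64.1 to 120, 77.3 to 123 and 55.6 to 90.4 CPM), and the levels in Adgre1-positive cells on 28, 4, 17 and 12 UMIs. B cells had 0.211 to 1.804 CPM of Flt3. Members were 0.581 to 1.22% of kept barcodes yet held 43.0, 42.4, 60.8 and 71.1% of a library's Flt3 UMIs.

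Zbtb46, the lineage's transcription factor (chr2:181387762-181459426, minus strand), was sparse, at 19.8, 16.9, 19.4 and 25.9 CPM in Cd209a-positive cells against 1.86, 0.616, 0.919 and 0.914 CPM in Adgre1-positive cells. Its log2 ratios were 3.48, 4.85, 4.43 and 4.84, with the widest counting interval in library 1 (2.09 to 4.56), where 8 UMIs stood behind the member level. The gene did not reach 20 CPM in 3 libraries and so was left out of the counts given further on.

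Ccr2, the receptor for the monocyte-attracting chemokine Ccl2 (chr9:124101950-124113557, plus strand), stood at 1277, 764, 449 and 454 CPM in Cd209a-positive cells and at 162, 114, 21.0 and 35.5 CPM in Adgre1-positive cells. Levels were highest in library 1 in both cell sets. The log2 ratios of Ccr2 were 2.98, 2.75, 4.42 and 3.68, in each library below those of Flt3, Zbtb46, Mgl2, Plbd1, Clec4b1, Klrd1 and Ear2, and T cells also carried it, at 215 to 489 CPM.

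The lectin Mgl2 (CD301b; chr11:70130329-70137550, plus strand), known from type 2 conventional dendritic cells of the skin, was at 446, 516, 261 and 300.3 CPM in Cd209a-positive cells and at 9.40, 2.45, 5.15 and 5.39 CPM in Adgre1-positive cells. Its log2 ratios were 5.57, 7.72, 5.66 and 5.80. Its neighbour on the chromosome, Clec10a (CD301a; chr11:70156197-70170834, plus strand), is closely alike in sequence. It had 516, 425, 461 and 399.7 CPM in members and 84.6, 31.7, 58.9 and 36.3 CPM in Adgre1-positive cells. Both lectins were higher in members of every library, and how reads fitting both copies were counted is not stated. The lectin gene Clec4b1 (chr6:123049962-123071555, plus strand) was at 216, 252, 200.1 and 177 CPM in members, against 10.0, 5.61, 2.08 and 2.29 CPM in Adgre1-positive cells.

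Plbd1, which encodes a phospholipase B-like protein (chr6:136612070-136661928, minus strand), was at 712, 629, 381 and 372 CPM in Cd209a-positive cells and at 33.5, 14.6, 4.39 and 4.53 CPM in Adgre1-positive cells. B cells had 29.4 to 43.9 CPM of it, so that B cells carried it as well. Klrd1 (CD94; chr6:129591782-129598775, plus strand), a lectin-like receptor best known from natural killer cells, was at 146, 233, 342 and 172 CPM in members and at 0.382, 0.167, 0.602 and 0.315 CPM in Adgre1-positive cells. T cells had 69.5 to 111 CPM of Klrd1, and natural killer cell genes Ncr1, Klrb1c, Gzma, Gzmb, Prf1 and Eomes were at 0 in members. The ratios of Klrd1, with a median of 9.10 on the log2 scale, were the second largest by their median among the genes tested.

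Ear2, an eosinophil-associated ribonuclease (chr14:44102654-44103534, plus strand), varied most between libraries among the genes above. It stood at 451, 55.0, 16.8 and 56.95 CPM in Cd209a-positive cells and at 41.4, 1.23, 0.570 and 0.180 CPM in Adgre1-positive cells. Library 1 had by far the highest level in both cell sets, and the log2 ratios were 3.45, 5.50, 4.91 and 8.26. In library 3 the member level rests on 13 UMIs and is below 20 CPM, so Ear2 was left out of the counts as well. Its close relatives Ear1, Ear6, Ear10 and Ear14 were at 0 in members, and how reads shared within this family were counted is not stated.

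**Figure D1:**
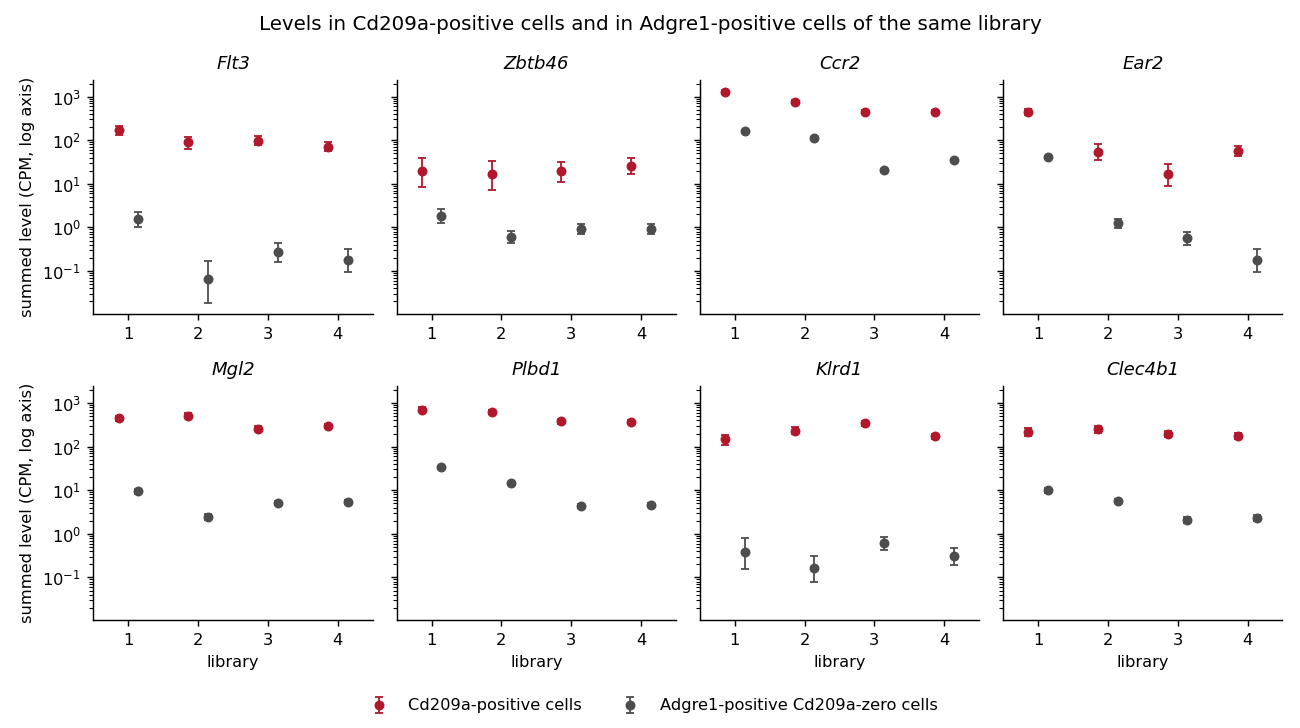
Summed levels (CPM, log axis) of the genes followed here in Cd209a-positive cells and, beside them, in Adgre1-positive Cd209a-zero cells of libraries 1 to 4; bars are exact 95% Poisson intervals. Member levels lie above those of Adgre1-positive cells in every library, with the narrowest gap for Ccr2 and the largest spread between libraries for Ear2.

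Several of these genes were high in the same cells, and the stretches around their starts are shown for the rule's own gene and for 2 genes that were high with it. Each is the RefSeq promoter stretch of build GRCm38.p6, 250 bases before the start to 50 after it, 5′ to 3′ on the gene's strand: Cd209a at chr8:3748935-3749234 (minus), Clec4b1 at chr6:123049712-123050011 (plus) and Itgax, which encodes the integrin CD11c, at chr7:128129300-128129599 (plus). Capitals mark the only match in each to 4 motifs searched on both strands.
Cd209a: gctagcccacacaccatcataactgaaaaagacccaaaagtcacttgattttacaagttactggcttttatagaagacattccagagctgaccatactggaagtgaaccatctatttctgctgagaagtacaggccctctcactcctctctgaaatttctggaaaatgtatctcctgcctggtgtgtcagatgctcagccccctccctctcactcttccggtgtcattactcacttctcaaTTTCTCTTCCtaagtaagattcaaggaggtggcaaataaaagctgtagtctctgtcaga
Clec4b1: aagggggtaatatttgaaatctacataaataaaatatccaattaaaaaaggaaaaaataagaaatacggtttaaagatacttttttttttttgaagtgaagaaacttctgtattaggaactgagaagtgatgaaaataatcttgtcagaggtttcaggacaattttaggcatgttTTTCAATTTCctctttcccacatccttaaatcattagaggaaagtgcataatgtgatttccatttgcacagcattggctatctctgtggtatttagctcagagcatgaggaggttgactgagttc
Itgax: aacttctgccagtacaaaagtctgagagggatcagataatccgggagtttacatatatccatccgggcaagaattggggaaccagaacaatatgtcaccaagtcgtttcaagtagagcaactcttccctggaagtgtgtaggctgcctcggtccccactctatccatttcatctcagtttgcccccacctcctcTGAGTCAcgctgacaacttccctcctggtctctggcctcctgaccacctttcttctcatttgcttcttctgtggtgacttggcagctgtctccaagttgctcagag
In Cd209a the capitals are an ETS-IRF composite element (searched as GGAA, any 2 bases, then GAAA; here on the other strand) that begins at -9 from the start. In Clec4b1 they are a core of the interferon-stimulated response element (searched as GAAA, any 2 bases, then GAAA; also on the other strand) at -75, and in Itgax an AP-1 site (TGANTCA) at -56. The fourth motif, a PU.1 site (GAGGAAGT), had no match in these 3 stretches, and none of the matches overlap. Of 32851 promoters of the same length, 2.72% held the ETS-IRF element, 3.44% the response element core, 7.81% the AP-1 site and 3.20% the PU.1 site. Among 207 promoters of 155 genes that were higher in members, the shares were 3.86, 7.73, 10.1 and 6.76% in the same order. The promoters of Flt3, Ccr2, Ear2, Mgl2 and Plbd1 held none of the 4 sets of letters. For Zbtb46 the stretch searched, chr2:181424339-181424638, lies around a start inside the gene and is not printed. It held an AP-1 site at -61. A match describes letters only.

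Across the transcriptome, the Cd209a-positive cells had more genes well above the Adgre1-positive cells than below them. A gene was called higher or lower when its log2 ratio was at least 1 in size and of the same sign in all 4 libraries and its CPM reached 20 in whichever set had more of it. Of 4983 genes that reached 20 CPM in this way, leaving out the 7 genes of the cell rules, 186 were higher (3.73%) and 51 lower (1.02%) in members. A gene that reached 20 CPM through members alone could only be higher or not called. A gene that did so through Adgre1-positive cells alone could only be lower or not called. A list's count is thus a description. The median ratio of the genes tested was -0.04, -0.04, 0.05 and 0.05 in libraries 1 to 4. Without library 4 the count of lower genes was 170, where leaving out a library can only keep or add calls. The sum over members held 403152 to 965802 UMIs in a library, so that 20 CPM stands for 8.06 to 19.3 UMIs.

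Genes with the largest ratios encoded surface receptors, enzymes and class II machinery. The 14 named here were, by their median log2 ratio, Ctnnd2 (9.20), Klrd1 (9.10), Klrb1b (8.96), Ddr1 (8.83), Itgax (8.65), Flt3 (8.53), Slamf7 (8.08), Kmo (7.97), Sirpb1a (7.59), Upb1 (7.45), H2-Oa (7.30), Amz1 (7.25), Dpp4 (6.98) and Ltb4r1 (6.54). Itgax had 59.5, 88.9, 59.4 and 46.6 CPM in members, against 1.37, 0.0833, 0.206 and 0.0749 CPM in Adgre1-positive cells. Slamf7, a receptor of the SLAM family, had 213, 239, 208 and 180.2 CPM in members, against 3.22, 0.916, 0.602 and 0.629 CPM. Dpp4, the surface peptidase CD26, had 141, 114, 89.1 and 74.5 CPM in members, against 8.47, 0.7995, 0.729 and 0.569 CPM, with 31.1 to 41.3 CPM in B cells. Kmo, an enzyme of tryptophan breakdown, had 94.3, 88.9, 72.3 and 46.6 CPM in members, against 4.70, 0.3498, 0.269 and 0.180 CPM, with 14.8 to 26.8 CPM in B cells. All 4 genes were at or above 46.6 CPM in members of every library and below 9 CPM in Adgre1-positive cells. For 12 of the 14, all but Ctnnd2 and Sirpb1a, the log2 ratio was lowest in library 1, for example 4.34 against 7.97, 8.04 and 7.97 for Kmo. For 11 of the 14, all but Ctnnd2, Klrd1 and Klrb1b, the level in Adgre1-positive cells was highest there. The ratio of Ctnnd2, a catenin, rests on 1, 2, 6 and 2 UMIs in Adgre1-positive cells with a counting interval of 7.01 to 15.05 for the log2 ratio in library 1.

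The 15 smallest ratios included genes of macrophages, of inflammatory myeloid cells and of B cells. They belonged to Igkc (-3.82), Chil3 (-2.66), Bank1 (-2.57), Folr2 (-2.44), Inka1 (-2.16), Igfbp4 (-2.001), Pdlim4 (-1.83), Fpr1 (-1.82), Clec4e (-1.76), Selenbp1 (-1.74), Epha2 (-1.69), Mlxipl (-1.69), Efnb2 (-1.69), Cebpb (-1.67) and Tom1 (-1.65). Chil3, a chitinase-like protein of activated macrophages, had 179, 489, 87.8 and 14.5 CPM in members against 1082, 2504, 588 and 146 CPM in Adgre1-positive cells. Chil3 thus ran over a wide range of levels between libraries, with log2 ratios between -3.28 and -2.35. Folr2, the folate receptor of resident macrophages, had 124, 8.47, 6.46 and 4.14 CPM in members against 359, 94.2, 36.3 and 27.0 CPM. Cebpb, a transcription factor of myeloid cells, had 184, 360, 520 and 435 CPM in members against 883, 1460, 1281 and 1088 CPM. Bank1 was at 0 in members of library 2 and Inka1 at 0 in members of library 1, so their ratios there are set by the 0.5 UMIs added. The immunoglobulin gene Igkc had 1099, 144, 57.9 and 43.5 CPM in Adgre1-positive cells, which unlike members were allowed UMIs of Cd79a. With 14477 Adgre1-positive cells that had no UMI of Cd79a or the Cd3 genes, its median log2 ratio was -0.48 and no longer called, and 210 genes were higher and 55 lower of 4975. Another immunoglobulin gene, Ighm, was then higher (median log2 ratio 3.88), with 184, 116, 87.8 and 63.2 CPM in members against 85.8, 9.67, 4.36 and 3.58 CPM in those cells. Against all Adgre1-positive cells Ighm was not called, with log2 ratios of -2.94, 0.11, 1.15 and 1.15.

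**Figure D2:**
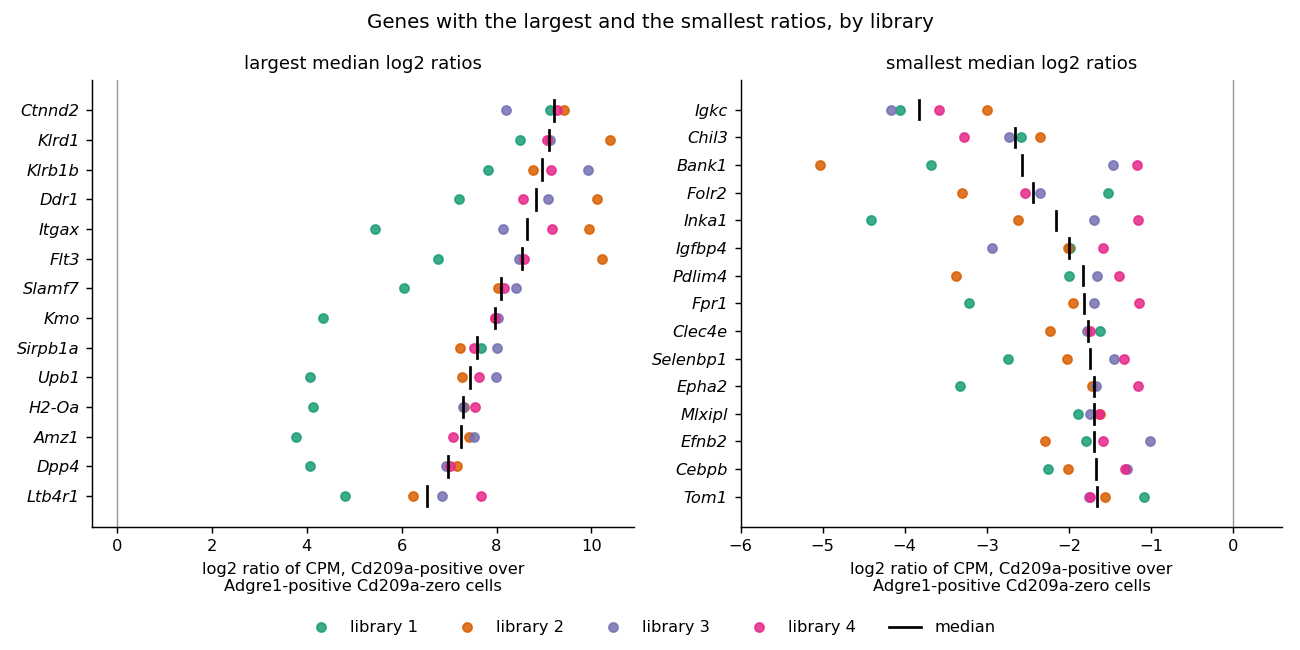
Log2 ratio of CPM in Cd209a-positive over Adgre1-positive Cd209a-zero cells for 14 genes with the largest (left) and 15 with the smallest (right) medians, 1 point for each library and a bar at the median. Library 1 lies left of the others for most genes of the left panel, such as Kmo and Amz1, and Bank1 and Inka1 include a library in which members had no UMI.

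Of 10 genes listed for the dendritic lineage, 8 reached the level for the comparison. They were Flt3, Itgax, Dpp4 and Kmo, the class II transactivator Ciita (300.1, 256, 165 and 204 CPM in members against 37.0, 42.1, 4.88 and 10.0 CPM in Adgre1-positive cells), and the transcriptional regulators Bcl11a, Runx3 and Cbfa2t3. Their median log2 ratios were 3.69 for Ciita, 4.02 for Bcl11a, 1.54 for Runx3 and 2.41 for Cbfa2t3. Each met the rule for higher, but all except Cbfa2t3 stood below 20 CPM in Adgre1-positive cells of at least 1 library and entered there through members alone, so their direction there was fixed by the limit. All lists were put together with earlier results of these data known, so that a list's direction is a description.

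Genes that part the dendritic subsets were called higher from both the type 2 and the type 1 list. In the type 2 list, 8 of 16 genes were tested and 4 higher, namely Clec10a, Mgl2, the lymphotoxin gene Ltb and the transcription factor Irf4, with a median log2 ratio of 1.49 for the 8. Irf4 had 206, 106, 42.6 and 36.2 CPM in members and 73.8, 27.0, 10.6 and 11.7 CPM in Adgre1-positive cells. Klf4, another factor of type 2 cells, had a median log2 ratio of 1.17 and fell short in library 4 (0.31). In the type 1 list, 4 of 10 were tested and 1 was higher, the transcription factor Batf3, with 164, 148, 93.0 and 81.8 CPM in members against 27.4, 19.3, 5.58 and 6.01 CPM. Irf8, the factor that type 1 cells require, had 29.8, 86.8, 65.8 and 54.9 CPM in members against 197, 106, 65.3 and 108 CPM, a median log2 ratio of -0.62 that did not meet the rule. The chemokine receptor Xcr1, which defines type 1 cells, had 1 UMI in 199 members, and Clec9a, their receptor for dead cells, was at 2.48, 19.0, 19.4 and 20.7 CPM in members and at 0.285 CPM or less in Adgre1-positive cells. Of the plasmacytoid list 2 of 8 were tested and none was called, with a median of 0.04, beside 3.73% higher and 1.02% lower of all genes tested. Of the list for mature migrating cells 3 of 13 were tested and 1 was lower, Anxa3, with Ccr7, Ccl22 and Socs2 at 0 in members.

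Most class II genes tested were higher. Of 13 class II genes, 10 were tested and 9 higher (median log2 ratio 3.05), and of 10 class I genes 9 were tested and none called (median -0.11). Over all genes tested, 3.73% were higher and 1.02% lower. The lack of calls among 9 class I genes is near those shares and no finding about them. Cd74 was used by the rule and is not counted, and these genes share with it the transactivator Ciita. The alpha chain H2-Aa had 12038, 11208, 9158 and 8305 CPM in members and 1729, 2920, 536 and 1128 CPM in Adgre1-positive cells. H2-Oa and H2-DMb2, chains of the molecules that steer peptide loading, had larger ratios (medians 7.30 and 5.14) than H2-Aa (2.84), and B cells also had 394 to 480 CPM of H2-DMb2. Ctss, the protease that trims the invariant chain, was not called, with 1113 to 1298 CPM in members and 1160 to 1281 CPM in Adgre1-positive cells. Set against the 7710 Adgre1-positive cells that also had at least 20 UMIs of Cd74 and no lymphocyte UMI, 200 genes were higher and 46 lower of 4952, and median log2 ratios were 7.60 for Flt3, 4.47 for Zbtb46, 2.71 for Ccr2, 4.503 for Ear2, 5.58 for Mgl2 and 5.20 for Plbd1. Ighm was higher in this setting too, at 3.88. Of 14 costimulation and adhesion genes 7 were tested and 1 was higher, Icosl, the ligand of the T cell receptor ICOS, with 32.1 to 48.7 CPM in members against 3.40 to 7.21 CPM.

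Monocyte genes were divided. Of 16 listed 12 were tested, of which Ccr2, S100a4, S100a6 and Ms4a4c were higher and Chil3, Hp, F13a1 and Fn1 lower (median log2 ratio -0.25). Ms4a4c, a membrane protein of the MS4A family, had 124, 171, 139 and 127 CPM in members against 2.90, 2.47, 2.17 and 1.00 CPM in Adgre1-positive cells. Ly6c2, which marks classical monocytes, had 0, 123, 32.3 and 1.04 CPM in members and 1.01 to 6.55 CPM in Adgre1-positive cells, and was not tested. Of the list for small peritoneal macrophages 7 of 11 were tested, with Ccr2, Clec10a, Irf4 and Napsa higher and Folr2 lower (median 1.82). Retnla, a secreted protein of this list, was not called, with 11621, 832, 47.8 and 748 CPM in members and 8133, 954, 1069 and 818 CPM in Adgre1-positive cells, so that library 1 was far above the rest in both sets.

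The remaining receptors and factors were called in few places. Of 24 lectin and Clec4-type genes 11 were tested, with Mgl2, Clec10a, Clec4b1, Clec12a and Klrd1 higher and the pathogen sensors Clec4d and Clec4e lower. Of 17 chemokine receptors Ccr2 was the 1 that was called among 3 tested, and of 20 chemokines 8 were tested with Ccl5 higher (38.1 to 111 CPM in members against 5.15 to 14.0 CPM). Cx3cr1 had 12.4, 93.1, 76.2 and 49.7 CPM in members against 5.74, 5.11, 3.49 and 3.36 CPM and stayed below 20 CPM in library 1. Of 26 lineage transcription factors 20 were tested, among them Irf4, Batf3 and Runx3, which were higher, and Cebpb, which was lower. None of the genes tested was called in the lists for interferon response (6 of 14), cell cycle (4 of 14) or immediate early genes (8 of 13). With 3.73% of all genes tested higher and 1.02% lower, lists this short are near those shares without a call. Of 10 NK cell genes 2 were tested, Klrd1 and Ccl5, and both were higher, while Ncr1, Klrb1c, Gzma, Gzmb, Prf1 and Eomes were at 0 in members. Among markers of other cells, Rnase6 of the ribonucleases and the actin-binding gene Gsn of the stromal list were higher, while the stromal genes Col1a1, Col3a1, Msln, Krt19, Upk3b, Wt1 and Lum were at 0 in members.

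**Figure D3:**
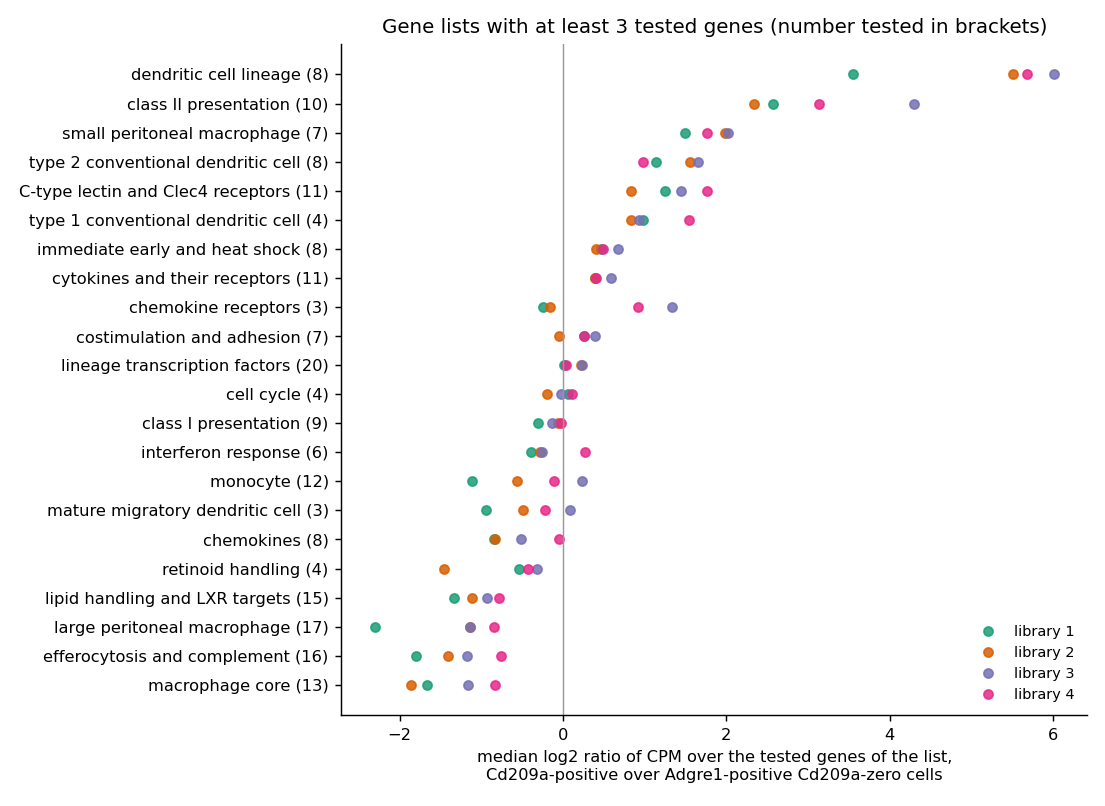
Median log2 ratio of CPM, Cd209a-positive over Adgre1-positive Cd209a-zero cells, over the tested genes of each list with at least 3 of them (number in brackets), 1 point for each library. The dendritic lineage, whose direction the limit on CPM partly fixes, lies at 3.55 to 6.01 and class II presentation at 2.34 to 4.30, while the large macrophage and core macrophage lists lie between -2.30 and -0.84.

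Levels of macrophage genes in members differed with Adgre1. Of 19 genes of large peritoneal macrophages 17 were tested and 3 were lower, Icam2, Alox15 and Fn1 (median log2 ratio -1.14), beside 1.02% of all genes tested. The 13 tested of 17 core macrophage genes had a median of -1.49. Gata6, the factor these macrophages require, stood at 4.96, 46.6, 54.2 and 74.5 CPM in members and 43.3, 64.1, 127 and 134 CPM in Adgre1-positive cells. Members had no UMI of Adgre1 in 88 cells, 1 UMI in 37 and at least 2 in 74, which is 27.6, 22.9, 32.3 and 52.9% with at least 2 in libraries 1 to 4. The share was highest in library 4.

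The 125 members with at most 1 UMI of Adgre1 had large-macrophage genes at the level of free RNA. The 7 genes Gata6, Timd4, Icam2, Selp, Prg4, Alox15 and Cxcl13 summed to 240, 178, 224 and 217 CPM in them, against 4681, 6127, 11090 and 9635 CPM in Adgre1-positive cells. In B cells the sum was 261, 194, 344 and 268 CPM and in T cells 373, 268, 364 and 323 CPM, at or above that of these members in every library. The 74 members with at least 2 UMIs of Adgre1 had 2625, 11514, 11101 and 9009 CPM. In the members with at most 1 UMI of Adgre1, Gata6 was at 2.57 to 3.69 CPM and Timd4 at 0 to 12.2 CPM. The complement gene C1qa was at 696 CPM in library 1 and at 67.3, 103 and 79.4 CPM in libraries 2 to 4, where B cells had 159 CPM in library 1 and 98.7 to 121 CPM in the others. Library 1 thus kept C1qa above the level in B cells. The lysozyme gene Lyz2 was at 8207 CPM in library 1 and at 2572, 1814 and 2249 CPM in libraries 2 to 4. It was above the 815, 954, 1423 and 1390 CPM of B cells in every library. Retnla was at 14434, 175, 23.1 and 27.5 CPM in libraries 1 to 4, where B cells had 226, 38.7, 41.6 and 26.0 CPM.

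With only those 125 cells as members, 286 genes were higher and 353 lower of 5151, a choice made after their values were seen. All 17 tested genes of large macrophages were then lower (median log2 ratio -5.08), as were 11 of 13 core macrophage genes (-5.37) and 14 of 16 genes of efferocytosis and complement (-4.56). Genes that reached 20 CPM through Adgre1-positive cells alone could only be lower or not called. The cells on either side were also chosen by their Adgre1, so these counts are a description. Of 10 class II genes 9 were higher (3.60). Leaving out library 1 as well, which can only keep or add calls, gave 443 higher and 493 lower genes. With only the 74 cells that had at least 2 UMIs of Adgre1, as the Adgre1-positive cells did, 62 genes were higher and 3 lower of 4881. The large macrophage list then had none called of 17 (-0.24). In the same 74 cells the dendritic lineage list had 7 of 7 tested genes higher (5.64) and the class II list 5 of 10 (2.38). The limit on CPM partly fixes the direction of the dendritic list. These 74 cells also join members with 2 or 3 UMIs of Adgre1 and members with more, which differed as given below.

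Cell by cell, the sums of dendritic and of macrophage genes parted with Adgre1. The 8 dendritic genes named above summed to a median of 21.6 UMIs per 10000 in members with at most 1 UMI of Adgre1, to 2.35 in members with more, and to 0 in Adgre1-positive cells. The 7 large-macrophage genes summed to a median of 1.86 UMIs per 10000 in members with at most 1 UMI of Adgre1, to 77.1 in members with more and to 75.7 in Adgre1-positive cells. Members with 2 or 3 UMIs of Adgre1, found in libraries 1, 2 and 4, had macrophage sums of at most 11.7 and dendritic sums of at least 9.14. Those with 4 or more had macrophage sums of at least 24.3. The set with at least 2 UMIs of Adgre1 thus joins 2 kinds of cells. In the members with at least 2 UMIs of Adgre1, 35 had at least 3 of the macrophage genes with at most 1 dendritic gene, at a median of 14014 UMIs, and 29 had at least 3 of both, at a median of 22836 UMIs. Members with at least 3 dendritic and at most 1 macrophage gene numbered 65, at a median of 10216 UMIs. Among members with at least 2 UMIs of Adgre1, cells with both kinds of genes were thus the deeper ones, and their part as doublets was not tested.

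**Figure D4:**
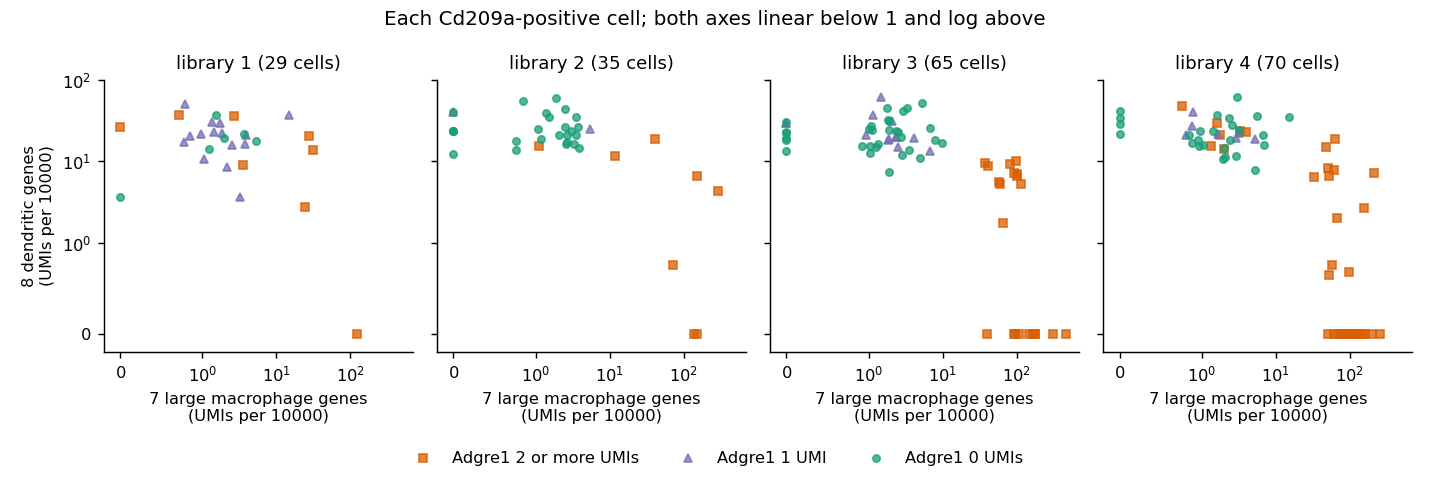
Each Cd209a-positive cell of libraries 1 to 4 by its summed UMIs per 10000 of 7 large-macrophage genes (x) and of 8 dendritic genes (y), both axes linear below 1 and logarithmic above it; squares, triangles and circles stand for 2 or more, 1 and 0 UMIs of Adgre1. Circles and triangles lie at 15.2 or less on the x axis and at 3.62 or more on the y axis, while squares spread to the lower right, with medians of 77.1 on x and 2.35 on y. Squares of cells with 2 or 3 UMIs of Adgre1 lie within the bounds of circles and triangles, and those with 4 or more at 24.3 or above on x.

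The members with at least 2 UMIs of Adgre1 were set against those with none in libraries 3 and 4, where both sets had at least 20 cells. Of 5296 genes tested, 487 were higher (9.20%) and 308 lower (5.82%) in those with at least 2. Cxcl13, a chemokine for B cells that large macrophages make, had 4222 and 2901 CPM in them, against 55.3 and 23.1 CPM in those with none. F5, Prtn3, Cd5l, Ednrb, Padi4, Ptgis and C3ar1 were the others among the 8 largest, each at 0 in members without Adgre1 in at least 1 library, where the ratio is set by the 0.5 UMIs added. All 18 tested genes of large macrophages, 13 of 14 core macrophage genes and 15 of 16 efferocytosis and complement genes were higher. A gene that reached 20 CPM in 1 of these sets alone could be called in 1 direction only, so counts by list are a description. The 8 smallest ratios were those of Cd83, Cd72, Cd226, Cd209c, Mgl2, Spata13, Hr and Padi2. Cd83, Cd226 and Padi2 in library 3, and Cd72 and Cd209c in library 4, were at 0 in members with at least 2 UMIs of Adgre1. The 0.5 UMIs added set the ratio there. Mgl2 had 5.19 and 169 CPM in members with 2 or more UMIs of Adgre1, against 472 and 584 CPM in those with none. Cells with 2 or 3 UMIs of Adgre1, whose sums are given above, were part of this set in library 4 and not in library 3. Flt3 had 28.5 and 34.5 CPM against 166 and 115 CPM, and Ccr2 112 and 260.0 CPM against 760 and 799 CPM. Both were lower in both libraries, while Itgax, with a log2 ratio of -0.66 in library 4, was not called. Of the dendritic lineage list 7 of 9 were lower and of the class II list 9 of 10.

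Members with at most 1 UMI of Adgre1 differed among themselves in Mgl2, a contrast picked after its values were seen. Of these 125 cells, 68 had no UMI of Mgl2, 5 had 1 and 52 had 2 or more, and the 57 cells with any had a median of 9 UMIs. Plbd1 in contrast had a UMI in 124 of the 125. The cells with 2 or more UMIs of Mgl2 numbered 12, 12, 14 and 14 in libraries 1 to 4 and those with none 8, 14, 29 and 17. Their median depths were close, at 12750.5, 11156, 9200.5 and 10389 UMIs in cells with Mgl2 and 13666.5, 10912.5, 9465 and 10216 UMIs in cells without. Klrd1 was at 75.8, 116, 264 and 190.0 CPM in cells with Mgl2, against 270.5, 497, 670.2 and 503 CPM in cells without. Ltb was at 18.9, 30.9, 15.99 and 21.1 CPM in cells with Mgl2, against 251, 76.4, 97.4 and 58.5 CPM in cells without. The receptor tyrosine kinase Kit had a UMI in 1 of 52 cells with Mgl2 and in 21 of 68 without. Klrd1, Ltb and Kit were thus lower with Mgl2 in all 4 libraries. Ccr2 was at 1736, 1236, 1136 and 1168 CPM in cells with Mgl2, against 1101, 962, 619.5 and 549.7 CPM in cells without, and Clec4b1 at 359.8, 440, 488 and 408 CPM against 155, 236, 284 and 339 CPM. Both were higher with Mgl2 in all 4 libraries. Flt3 was lower with Mgl2 in libraries 1, 2 and 4 and higher in library 3 (208 against 152 CPM), and Clec10a was higher in libraries 1 and 3 and lower in libraries 2 and 4.

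Single cells rarely show a UMI of low genes, so the share of cells with a UMI of Flt3 or Zbtb46 was taken after thinning every cell to 3000 UMIs. It was 37.9% in members of library 1 (11 of 29 cells, exact 95% interval 20.7 to 57.7%), 25.7% in library 2 (9 of 35, 12.5 to 43.3%), 27.7% in library 3 (18 of 65, 17.3 to 40.2%) and 23.2% in library 4 (16 of 69, 13.9 to 34.9%). Unthinned shares were 62.1, 68.6, 61.5 and 48.6%. The 4 intervals overlap, and 1 member of library 4 was left out as too shallow, as were 24 to 112 Adgre1-positive, 14 to 48 B and 6 to 27 T cells in a library. In Adgre1-positive cells the thinned share was 0.969, 0.135, 0.302 and 0.306%, in B cells 1.22, 0.183, 0.380 and 1.17%, and in T cells 1 of 92 in library 2 and 0 of 87, 122 and 109 in libraries 1, 3 and 4. A count of 0 there allows up to 3.45, 2.46 and 2.75%. The share in Adgre1-positive cells was at or below that in B cells in every library. In library 1 the 28 UMIs of Flt3 in Adgre1-positive cells lay in 5 cells. In members with at most 1 UMI of Adgre1 the share was 38.1, 29.6, 38.6 and 37.5%, and in members with 2 or more it was 37.5, 12.5, 4.76 and 10.8%, from 8, 8, 21 and 37 cells. The set with 2 or more included cells with 2 or 3 UMIs of Adgre1 in libraries 1, 2 and 4, whose dendritic sums were at least 9.14 UMIs per 10000.

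**Figure D5:**
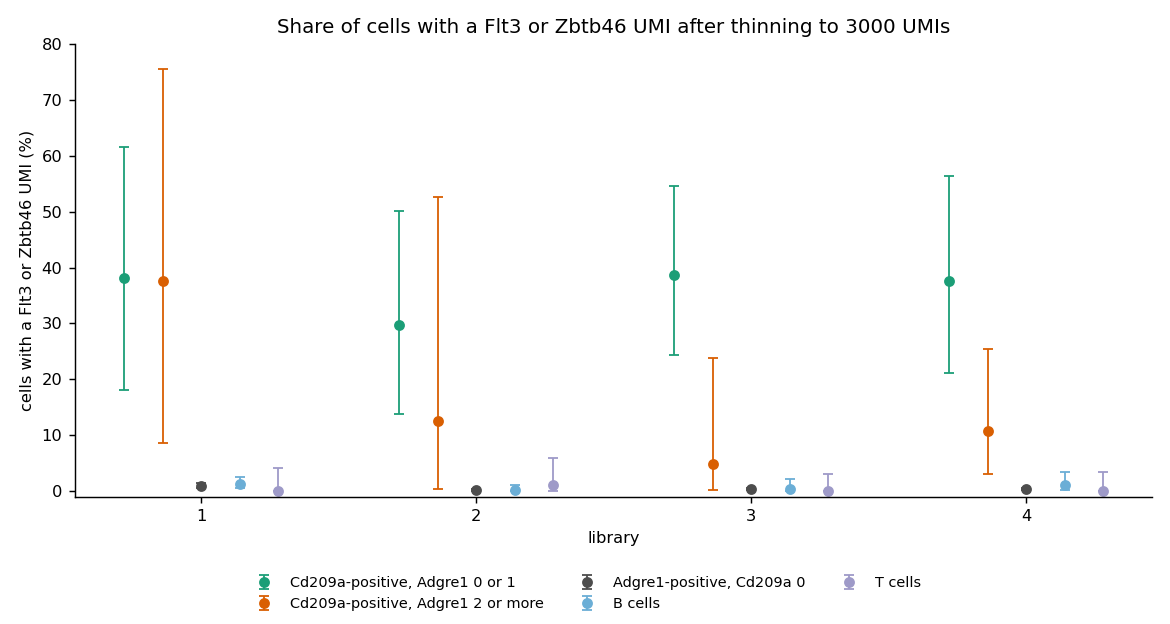
Share of cells (%) with a UMI of Flt3 or Zbtb46 after thinning to 3000 UMIs, by library, for Cd209a-positive cells with 0 or 1 and with 2 or more UMIs of Adgre1, for Adgre1-positive Cd209a-zero cells and for B and T cells; bars are exact 95% binomial intervals. Members with 0 or 1 UMI of Adgre1 lie between 29.6 and 38.6%, and Adgre1-positive, B and T cells at 1.22% or less.

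Although few, members supplied much of what a library held of several transcripts. Members held 35.3, 30.4, 56.6 and 47.2% of the Klrd1 UMIs of kept barcodes in libraries 1 to 4, 41.0, 50.1, 33.3 and 39.7% of those of Mgl2, and 27.0, 44.7, 44.2 and 65.2% of those of Itgax. For Ccr2 the shares were 7.87, 3.79, 14.7 and 12.0%, and for Zbtb46 12.1, 11.1, 16.5 and 23.6%. The shares of Plbd1 were 15.5, 15.4, 33.1 and 40.7%. For Flt3, Plbd1, Klrd1 and Ccr2 the shares were larger in libraries 3 and 4, which also had more members, than in libraries 1 and 2.

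Apoe, the gene disrupted in 3 of the 4 groups, had 27.3, 188, 322 and 17115 CPM in members and 27.0, 847, 721 and 29603 CPM in Adgre1-positive cells of libraries 1 to 4. Library 4 thus stood far above the other libraries in both sets. A 3' count need not lie in the disrupted stretch, so these levels check no label. In members with at most 1 UMI of Adgre1, Apoe was at 33.2, 6.73, 12.8 and 834 CPM, below the 60.2, 76.0 and 1184 CPM of B cells in libraries 2 to 4 and above their 7.52 CPM in library 1. Lyve1, a hyaluronan receptor of some tissue macrophages, had 32, 0, 1 and 7 UMIs in members, which is 79.4, 0, 1.29 and 7.25 CPM against 394, 16.1, 19.1 and 17.7 CPM in Adgre1-positive cells. The 0 in library 2 allows up to 6.35 CPM, and Lyve1 was not tested for a call.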

How the data were processed

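The deposited file was a matrix of UMI counts for 31253 genes and 26811 barcodes, whose header names Cell Ranger 5.0.1 as the program that wrote it. Tools named in the submitters' processing notes were Seurat, Cell Ranger and CASAVA 1.8, with the build mm10; the treatment of reads shared by near-identical genes is not stated there. The raw counts were used, with cells kept at 500 or more detected genes and 10% or less mitochondrial UMIs. The rule for members, the gene lists and several comparisons were chosen with earlier results of these data known.

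UMIs were summed over the cells of a set in each library and scaled to counts per 1e+06 (CPM), so that a level does not depend on transcript length in 3' data. Log2 ratios had 0.5 UMIs added to each sum. A gene was tested when the set with more of it reached 20 CPM in every library, and called when its log2 ratio was at least 1 in size with the same sign in all 4 libraries. The 7 genes of the cell rules were left out. Named were the 15 largest and 15 smallest medians among called genes with a symbol of their own, the label's markers, Flt3, Zbtb46 and Ear2, list genes at 20 CPM in either set, Apoe and Lyve1, and the 8 largest and 8 smallest of the contrast by Adgre1. A few results that these choices include are not reported here. List genes below that level and the genes of the contrast by Mgl2 were named after their values were seen. Intervals are exact 95% Poisson or binomial intervals, and a count of 0 allows up to 3 UMIs. Gene positions are those of GRCm38.

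With 1 sample for each group, and suffixes that could not be matched to samples, there was no test between groups and no count model. Alternatives covered scaling by TMM (edgeR 4.0.16), limits on CPM, cells and UMIs, the added count, thinning, Scrublet (scanpy 1.11.5) and leaving out each library. Python 3.11.15 and R 4.3.3 were used.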

Additional observations from a re-analysis of the deposited data

How the results depend on the processing

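None of Flt3, Zbtb46, Ccr2, Ear2, Mgl2, Plbd1, Klrd1 and Clec4b1 changed the sign of its median log2 ratio under the alternatives run. Other genes were not tracked through all of them. Ighm, for example, was called higher only against Adgre1-positive cells without lymphocyte UMIs. The count of 51 lower genes moved most. It was 78 with TMM scaling, 77 with a minimum of 5 CPM, 27 with 3 UMIs added (when the median over genes tested was 0.12), 129 with cells thinned to 3000 UMIs and 262 with at least 100 UMIs of Cd74. It was 1 with Cd209a at 1 UMI or more and 259 at 4 or more, and ran from 58 to 170 when each library was left out in turn. A call needs every library, so leaving out a library can only keep or add calls of either direction. Counts from that choice could therefore not fall. All 51 genes remained among those with TMM scaling, a minimum of 5 CPM, at least 100 UMIs of Cd74 and at most 1 UMI of Adgre1. With 5 CPM this had to be so, since a lower limit only adds tested genes. The count of 186 higher genes was 329 with a minimum of 5 CPM and 103 with 50 CPM, where more or fewer genes are tested, 109 with Cd209a at 1 UMI or more, and 199 to 241 when each library was left out. Keeping members with at least 2 UMIs of Adgre1 gave 62 higher and 3 lower genes, those with at most 1 UMI 286 and 353, and the second choice without library 1 443 and 493; the settings with at most 1 UMI were chosen after seeing the data. The median log2 ratio of Flt3, Zbtb46, Ccr2, Ear2, Mgl2 and Plbd1, 5.47 in the report's setting, was 4.19, 6.22 and 6.43 under these 3 settings, 4.85 against class II-matched cells, and 5.17 to 5.65 when each library was left out. Members numbered 344 with Cd209a at 1 UMI or more, 118 when barcodes were thinned before the rule and 125 with at most 1 UMI of Adgre1, each of which changes the rule itself. The median thinned share with Flt3 or Zbtb46, 26.7%, was 61.8% without thinning. With a minimum of 50 CPM, an alternative added after seeing the data, the contrast within members by Adgre1 gave 278 higher and 184 lower genes. Apart from settings that change which genes or cells enter, the cause was not tested. The chief limits are the few members in a library, 1 library for each group, unmatched suffixes, and doublets that could not be marked in libraries 2 to 4. No paired analysis between groups was possible because the groups have 1 sample each and share no replicates. Ratios of members over Adgre1-positive cells were formed within a library.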

Other observations

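Outside the rule, 24 kept cells had at least 2 UMIs of Flt3 with no UMI of Cd209a, Cd79a or the Cd3 genes, 7, 7, 7 and 3 of them in libraries 1 to 4. They are a description chosen by Flt3, and their Flt3 level is no finding. In their sums Xcr1, the chemokine receptor of type 1 dendritic cells, was at 236, 149, 62.4 and 114 CPM, from 4, 4, 3 and 1 cells, where Cd209a-positive cells had 1 UMI in all. Clec9a, the dead-cell receptor of that subset, was at 195, 158, 152 and 133 CPM in them, against 2.48, 19.0, 19.4 and 20.7 CPM in Cd209a-positive cells. Mgl2 was at 8.14 CPM in library 1 and at 0 in libraries 2 to 4, and Plbd1 at 683, 747, 526 and 418 CPM, near its levels in Cd209a-positive cells. Klrd1 was at 228, 249, 161 and 190.1 CPM. Ccr7, at 0 in Cd209a-positive cells, was at 539 CPM in library 2 and 178 CPM in library 3, each from 1 cell, and the plasmacytoid receptor Siglech at 407 CPM in library 1 and 17.8 CPM in library 3, each from 1 cell.

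The 96 cells with at least 2 UMIs of Cd209a and fewer than 20 of Cd74 numbered 18, 0, 38 and 40 in libraries 1 to 4. The chemokine gene Cxcl13 stood at 6540, 6080 and 3124 CPM in those of libraries 1, 3 and 4. Gata6 stood at 179, 144 and 168 CPM in them. In Cd209a-positive cells of the same libraries Gata6 stood at 4.96, 54.2 and 74.5 CPM, and in the Adgre1-positive cells at 43.3, 127 and 134 CPM.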
